A study of Mus musculus with 134 samples.

Results

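The ribosomal protein genes encode the proteins of the cytosolic ribosome. They were chosen by symbol alone, as Rpl or Rps followed by a number and at most the letter a, x or y, together with Rplp0, Rplp1, Rplp2 and Rpsa, and without Rpl7l1. This gave 76 of the 25209 genes in the bulk count files, 46 of the large and 30 of the small subunit, and 72 of the 18817 genes in the single-cell matrices. Rps3a, which the files list as Rps3a1, and relatives with longer symbols such as Rps27l were not among them.

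A ribosome joins a small subunit, which decodes the mRNA, and a large subunit, which forms the peptide bonds, and each is built from rRNA and a fixed set of proteins. The mRNAs of these proteins are short and abundant in growing cells such as mESCs, and most begin with a pyrimidine tract, the 5′TOP element, through which growth signals control their translation together. Most of these genes also have processed pseudogenes, copies of the mRNA inserted elsewhere in the genome, so that a short read from them may match several places.

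The study developed SET-seq, in which mRNA/cDNA hybrids made from the cytoplasm with an oligo-dT primer are tagmentated by Tn5, while a histone mark is profiled in the nuclei of the same cells. All libraries came from the mESC line E14 of the strain 129/Ola, named ES-E14TG2a in the study's methods, grown on gelatin with serum and LIF. Bulk expression was measured in 54 libraries of 27 conditions, 2 libraries each, from untreated cells, and single cells were 752 daughter cells from 16 experiments in which mESCs divided beside beads carrying Wnt3a. The questions were how temperature, time, Tn5, the input and the histone mark change the expression libraries, what loss of Aebp2, a subunit of the Polycomb complex PRC2, changes, and how daughter cells near to and far from the bead differ.

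On purified, DNase-treated total RNA, hybrids were tagmentated for 5, 10, 15 or 30 min at 16 °C or 37 °C, with 25, 50 or 100 ng/µl Tn5, or from 300 ng, 3 ng or 30 pg of RNA. SET-seq used 10, 100, 1000 or 10000 cells without antibody, and 100, 1000 or 10000 cells with an antibody against H3K4me3 or H3K27me3. A pair of conventional ligation-based RNA-seq libraries served as reference. The knockout (KO) lines KO1 and KO2 were made by CRISPR/Cas9 with a different guide each. Each is a single clone with 2 H3K27me3 SET-seq experiments, whose number of cells the labels do not give, and no WT library is labelled as made beside them. WT is here the untreated H3K27me3 SET-seq of 10000 cells.

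Libraries held 235040 to 21520982 counts, and the ribosomal protein genes held at least 13623 counts in every library. The rRNA precursor Rn45s took 1.54% to 84.6% of the counts and was left out of all shares and of CPM, in which counts are scaled to the library total. Of 10 markers of pluripotent cells at most 1 was at 0 in a library, and their summed level was 3892 to 8882 CPM, against 0 to 28.8 CPM for fibroblast markers, of which 1 to 6 of 6 were at 0. Hprt, an enzyme of purine salvage, was at 0 to 1.29 CPM in the libraries on purified RNA and at 0 to 2.14 CPM in the KO libraries, but at 66.2 to 485 CPM in the WT SET-seq libraries and at 181 and 184 CPM in the ligation-based libraries. The cell stock and the condition therefore cannot be told apart in the comparisons of KO with WT, of cytoplasm with total RNA and of tagmentation with ligation. The p-values measure only the spread between libraries around the fitted model, and for positions that of the difference between experiments. For temperature, time, the antibodies, and cell number with antibody, the model held no interaction of the factors. Any such interaction adds to the spread there.

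Some short motifs around the start of transcription were more frequent in these genes than among genes in general. RefSeq start sites of build GRCm38.p6 were available for 56 of the ribosomal protein genes. A run of 8 or more pyrimidines on the gene's strand, between 50 bases before and 50 bases after the start, was present in 85.7% of them and in 39.3% of 27025 genes. The letters CTTTCC, searched on both strands in the same window and able to overlap such a run, were present in 33.9% against 10.3%. The letters CCGGAAG, searched on both strands from 250 bases before to 50 bases after the start, were present in 41.1% against 9.93%. TATAAA, searched on both strands between 50 bases before and 10 bases after the start, was present in 1.79% against 4.56%. Stretches of 30 bases from 8 genes on which the results turn are shown, 5′ to 3′ on the gene's strand, and capitals mark the longest pyrimidine run between 50 bases before and 50 bases after the start.
Rpl10a, chr17:28328572-28328601, + strand: aagcgctctgCCTTCTTTCCggtttccgcg
Rpl37, chr15:5116631-5116660, + strand: ggcgggggtgCTTTCTCTTCCggtctcttt
Rpl39, chrX:37085173-37085202, − strand: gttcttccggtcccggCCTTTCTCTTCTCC
Rpl41, chr10:128549119-128549148, − strand: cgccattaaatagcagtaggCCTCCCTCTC
Rps2, chr17:24720083-24720112, + strand: aaattgtcccttccgcggcgCCTCCCTCTT
Rps4x, chrX:102189342-102189371, − strand: cgcgcagcctccgaccctaaTTTCTTCgtt
Rplp0, chr5:115559468-115559497, + strand: gaccgcctggTTCTCCTataaaaggcacac
Rpsa, chr9:120127706-120127735, + strand: ggaagttctcCCTTTTTgcttagcctgctt
The run measured 10 bases in Rpl10a, Rpl41 and Rps2, 11 in Rpl37 and 14 in Rpl39, and 7 in Rps4x, Rplp0 and Rpsa. Runs of 7 are under the 8 bases counted above. The start base is not marked, and the marked run need not be the 5′TOP tract. The run was counted within the window only, taking the first of equal runs: in Rpsa it goes on before the window, and in Rpl39, Rpl41 and Rps2 it reaches the window's last base. These windows describe the genes only, and no result below rests on them.

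The genes were short and had many near-identical copies. Their exons covered 390 to 5134 bases with a median of 737 bases, against 2257 for all genes, and 54 of 76 were under 1000 bases. In the genome build of the files, mm9, a median of 44.3% of a gene's stretches of 100 exon bases occurred again elsewhere, against 0.582% for the 24031 genes with a value. In 33 of the 76 genes more than 50% of the stretches did, which held for 2.80% of all genes. Reads that matched several places were not counted. Across the 76 genes, the copied share and the highest CPM in any library had a Spearman correlation of -0.58. A total of 7 genes never reached 30 CPM, namely Rpl38, Rpl5, Rpl34, Rps27, Rpl29, Rpl30 and Rpl26, and Rpl26 had a count in 5 of 54 libraries with a highest value of 0.504 CPM. The median copied share, by exact match only, was 43.9% in these 7 genes and 44.6% in the other members. The part of copied stretches in the low counts was not tested.

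Levels per exon length varied widely between the ribosomal protein genes. In the ligation-based libraries, Rpl8, near the peptidyl transferase centre of the large subunit, had the highest level at 2284 and 2417 RPKM (counts scaled by exon length and library total). Rpl4 was also high, with 1761 and 1721 RPKM. At the other end were Rpl26 with 0.3 RPKM in both libraries, Rpl5, which carries 5S rRNA into the ribosome, with 2.6 and 2.0 RPKM, and Rps27 with 2.7 and 2.6 RPKM. The 2 libraries differed little for the high genes, and the spread between genes was far larger. The order was not the same in tagmentated libraries. Over the 76 genes, RPKM of ligation and of tagmentation at 37 °C for 5 min had a Spearman correlation of 0.71, and RPKM of SET-seq of 10000 cells with H3K27me3 and of the same tagmentation one of 0.97.

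**Figure D1:**
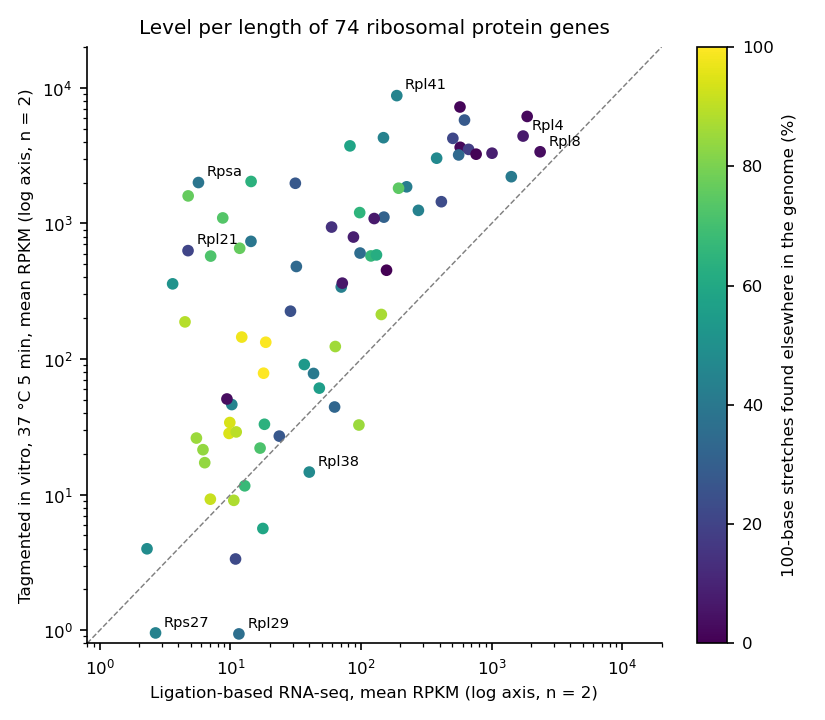
Level of each ribosomal protein gene (RPKM, mean of 2 libraries, log axes) in ligation-based RNA-seq, on the horizontal axis, and in tagmentation at 37 °C for 5 min, on the vertical axis, coloured by the percent of its 100-base exon stretches that occur elsewhere in the genome. The 2 genes with a mean of 0 are not drawn, and most points lie above the line of equal values, Rpsa far from it.

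The clearest difference between library types was the share of counts that ribosomal protein genes received. Ligation-based libraries gave them 1.48% and 1.51% of the counts outside Rn45s. All tagmentated libraries of WT cells lay far above, from 6.25% to 11.95%, and the 4 Aebp2 KO libraries lay between, from 3.29% to 3.73%. By group, the share was 7.59% and 10.67% with 25 ng/µl Tn5, 8.83% and 11.95% with 50 ng/µl and 9.72% and 11.06% with 100 ng/µl. It was 10.36% and 10.02% from 300 ng of RNA, 9.26% and 8.74% from 3 ng and 9.31% and 8.77% from 30 pg. The Tn5 amounts overlapped, whereas both 300 ng libraries lay above the smaller amounts. The share is a description, since a few abundant genes dominate it: in ligation-based libraries the 10 most abundant members held 70.4% of it.

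**Figure D2:**
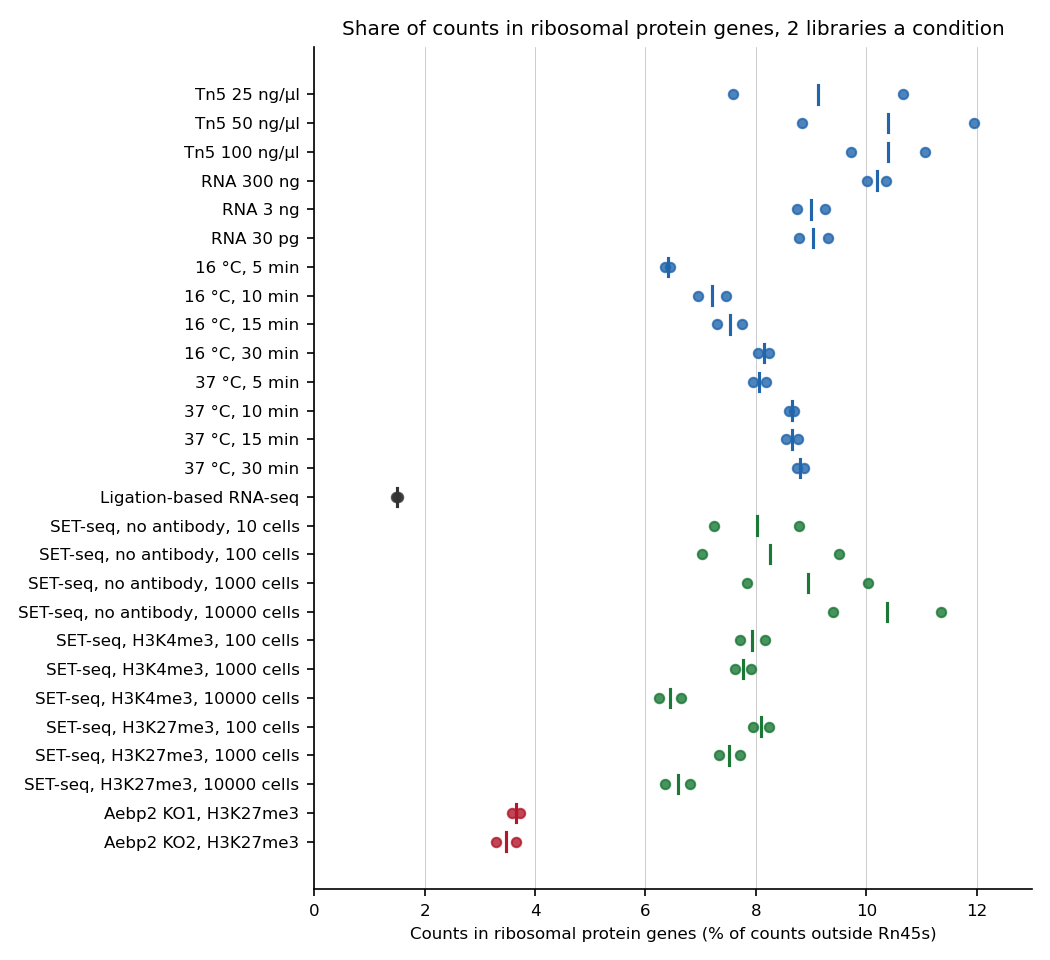
Share of counts outside Rn45s (percent) that fell on ribosomal protein genes in each of the 54 bulk libraries, grouped by condition, with 1 point per library and the mean of each condition as a line. Ligation-based libraries sit at about 1.5%, KO libraries at 3.29% to 3.73% and all other libraries at 6.25% or more.

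Tagmentation temperature changed large-subunit and small-subunit genes differently. The share over the 4 times was 6.36% to 8.24%, median 7.38%, at 16 °C, and 7.94% to 8.87%, median 8.65%, at 37 °C, and the groups overlapped. Large-subunit genes took 2.54% to 3.45% of the counts at 16 °C, median 2.94%, and 4.01% to 4.74% at 37 °C, median 4.45%, without overlap. Small-subunit genes took 3.82% to 4.79%, median 4.43%, and 3.81% to 4.29%, median 4.16%, with overlap. The ratio of large-subunit to small-subunit counts was accordingly 0.649 to 0.720 at 16 °C and 0.964 to 1.15 at 37 °C. Rn45s moved as well, from 11.8% to 25.1% of the counts at 16 °C to 33.0% to 40.7% at 37 °C, and its part in the result was not tested.

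Of 73 ribosomal protein genes tested by edgeR's quasi-likelihood test with Benjamini-Hochberg adjustment over all genes, 46 were higher and 10 lower at 37 °C at an adjusted p below 0.05. In the same comparison 63.4% of all 11788 genes passed, 32% higher and 31.4% lower. Their median log2 fold change was 0.55, and that of all genes was −0.00. In the large subunit 27 of 44 rose and 3 fell, and in the small subunit 19 of 29 rose and 7 fell. For 32 of the genes that rose and 6 that fell, the libraries at 37 °C and at 16 °C did not overlap at any of the 4 times, which held for 35.3% of all genes, 15.6% higher and 19.8% lower. The log2 fold change had a Spearman correlation of −0.56 with the GC content of the exons over all tested genes. Over the 73 ribosomal protein genes it was −0.15, and the part of GC content in the result was not tested.

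A pair of large-subunit genes changed most. Rpl39, at the mouth of the peptide exit tunnel, had 40.0 to 114 CPM at 16 °C, median 49.5, and 205 to 446 CPM at 37 °C, median 336 CPM. Every library at 37 °C was above every library at 16 °C, with a log2 fold change of 2.61 ± 0.16 (SE, n = 8 and 8 libraries, edgeR adjusted p = 2.96e-14). Rpl37 had 67.5 to 133 CPM, median 87.2, and 188 to 1107 CPM, median 289.8, with a log2 fold change of 2.47 ± 0.28 (edgeR adjusted p = 8.5e-09). Its highest values at 37 °C were those of replicate 2 at 10, 15 and 30 min, namely 913, 973 and 1107 CPM, against 234, 263 and 317 CPM in replicate 1. Rpl13 and Rps7, with fewer counts, rose by 1.97 ± 0.12 and 1.94 ± 0.27.

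Abundant large-subunit genes gave the rise in share. Rpl4 had 2671 to 3296 CPM at 16 °C, median 2784, and 5704 to 7406 CPM at 37 °C, median 6723, a log2 fold change of 1.27 ± 0.05 (edgeR adjusted p = 2.23e-17). Rpl32 had 1192 to 2157 CPM, median 1544, and 3423 to 4196 CPM, median 3948, a log2 fold change of 1.39 ± 0.07 (edgeR adjusted p = 7.31e-16). The groups did not overlap for either gene. Rpl41, the shortest ribosomal protein, had 1924 to 4434 CPM at 16 °C and 3578 to 4288 CPM at 37 °C, which overlapped, with a log2 fold change of 0.45 ± 0.10 (edgeR adjusted p = 0.000292).

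Of the 10 genes that fell, 7 belonged to the small subunit. Rpsa, a protein of the small subunit that also serves as a laminin receptor, had 5855 to 7943 CPM at 16 °C, median 6983, and 2435 to 4184 CPM at 37 °C, median 3202. The groups were fully separate and the log2 fold change was −1.06 ± 0.10 (edgeR adjusted p = 1.28e-10). Rps2, at the mRNA entry site, had 1739 to 2722 CPM, median 2366, and 742 to 1304 CPM, median 1104, also without overlap, and fell by 1.04 ± 0.10 on the log2 scale (edgeR adjusted p = 7.24e-10). Rps4x, the X-linked form of Rps4, went the other way with 2540 to 3304 CPM at 16 °C and 3802 to 4902 CPM at 37 °C, a log2 fold change of 0.63 ± 0.07 (edgeR adjusted p = 2.87e-09). Rplp0, the base of the large subunit's stalk, and Rpl10a, in its L1 stalk, did not pass the test, with log2 fold changes of −0.12 each and adjusted p-values of 0.112 and 0.207.

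**Figure D3:**
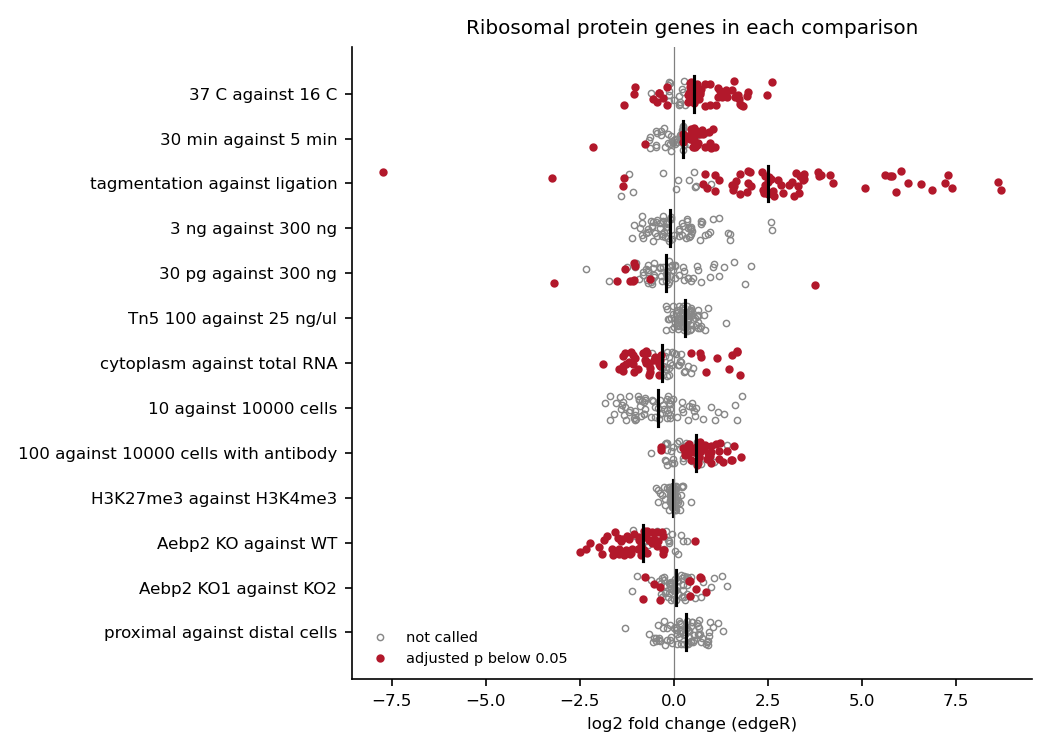
Log2 fold change of each ribosomal protein gene tested (1 point per gene, coloured by whether it passed an adjusted p of 0.05 in edgeR) in the bulk and single-cell comparisons, with the median of the genes as a black bar. The points lie mostly above 0 for 37 °C against 16 °C, tagmentation against ligation and 100 against 10000 cells with antibody, and mostly below 0 for Aebp2 KO against WT.

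The effect of temperature on 17 genes was not the same at 5 min and at 30 min. In an interaction test chosen after seeing the data, 14 of 74 genes had a larger effect at 5 min and 3 a smaller effect, where 2.81% of 12297 genes passed. Rplp2, a stalk protein, had 234 and 276 CPM at 16 °C and 847 and 855 CPM at 37 °C after 5 min, but 780 and 913 CPM and 906 and 1127 CPM after 30 min. The 16 °C reaction thus reached the level of 37 °C only with time. The difference of its log2 effects was 1.51 ± 0.20 (edgeR adjusted p = 8.63e-05).

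Across both temperatures, 30 of 73 genes were higher and 2 lower after 30 min than after 5 min, where 7.49% of all genes passed, 4.34% higher and 3.15% lower. At both temperatures the libraries did not overlap for 17 of the genes that were higher and 0 of those lower, where 3.95% of all genes were called without overlap, 2.16% higher and 1.79% lower. The median log2 fold change was 0.26. Rplp2 rose by 1.09 ± 0.19 (edgeR adjusted p = 0.00139). Rpl35, at the exit tunnel, had 120 and 88.9 CPM at 16 °C and 273 and 319 CPM at 37 °C after 5 min, and 184 and 174 CPM and 478 and 706 CPM after 30 min, a log2 fold change of 0.93 ± 0.14 (edgeR adjusted p = 0.000621). Each temperature's libraries were higher after 30 min. Rps13 was low and fell at 16 °C from 48.7 and 29.9 CPM to 4.53 and 6.50 CPM, while at 37 °C it was at 6.59 and 3.98 CPM and at 3.86 and 4.16 CPM. Rps10 and Rpl37a rose by 0.83 ± 0.19 and 0.78 ± 0.17, and Rpl41 and Rplp0 by 0.62 ± 0.14 and 0.41 ± 0.09. Rpl37, Rpl39, Rps4x, Rpl10a and Rpsa did not pass, with 0.84, 0.27, 0.24, 0.23 and 0.03. The other gene that fell was Rpl15, with a log2 fold change of −0.76 ± 0.18 (edgeR adjusted p = 0.0122). The counts rest on both replicates: without replicate 1, 11 genes were higher and 2 lower, and without replicate 2, 1 was higher and 1 lower.

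The amount of Tn5 gave no call. Of 74 genes, none passed between 100 and 25 ng/µl, where 0% of 13177 genes passed by edgeR, 2 of the genes had an unadjusted p below 0.05, as had 84 of all genes, and DESeq2 called none. Rpl4 had 4926 and 5841 CPM with 25 ng/µl, 7380 and 10589 CPM with 50 ng/µl and 9194 and 8105 CPM with 100 ng/µl. Rpl41 had 4979 and 7471 CPM, 5186 and 7264 CPM, and 5233 and 6779 CPM. Replicate 2 was above replicate 1 at every amount for Rpl41 and Rpsa, and for Rpl41 the spread within an amount was larger than the difference between amounts. Libraries with the same number moved together here. With the replicate block none of the genes passed, and 38 of the genes and 1587 of all had an unadjusted p below 0.05. The median log2 fold change of 0.29 was 0.80 without replicate 2 at 25 ng/µl and −0.01 without replicate 1.

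Few of the genes passed the test between amounts of RNA, and the calls rested on single libraries. From 3 ng against 300 ng, none of 71 passed by edgeR, where 0% of 10753 genes passed. An unadjusted p below 0.05 was found for 17 of the genes and 1558 of all, and DESeq2 called 2 higher, 9 lower and 819 genes in all. From 30 pg against 300 ng, 1 gene was higher and 9 lower, where 22.7% of all genes passed, 2.12% higher and 20.6% lower. With 2 libraries an amount, genes that did not pass may still differ. Their median log2 fold change was −0.22, and that of all genes −0.44. From 3 ng, log2 fold change and GC content of the exons had Spearman correlations of −0.75 over all tested genes and −0.44 over the members. From 30 pg these were −0.25 and −0.07, and the part of GC content was not tested.

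Rpl36a, a large-subunit protein at the tRNA exit site, was the gene that rose, from 4.09 and 4.41 CPM at 300 ng over 13.8 and 12.1 CPM at 3 ng to 55.8 and 86.6 CPM at 30 pg. Its levels were in order of the amount, with a log2 fold change of 3.77 ± 0.62 from 300 ng to 30 pg (n = 2 and 2, edgeR adjusted p = 0.0191). Rpl37 had 343 and 558 CPM at 300 ng, 334 and 900 CPM at 3 ng and 62.7 and 52.6 CPM at 30 pg. Only the 30 pg libraries were apart, with a log2 fold change of −3.18 ± 0.59 (edgeR adjusted p = 0.0201). Rpl14 with −1.30 ± 0.23, Rpl41 with −1.16 ± 0.21 and Rplp0 with −1.07 ± 0.25 were also lower. Rpl39, Rps4x, Rpsa and Rpl10a did not pass, with 1.91, −0.67, −0.52 and −0.02. No call remained with either 300 ng library left out or with the replicate block, and 10 to 13 were higher and 27 to 32 lower with either 30 pg library left out.

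Against ligation-based RNA-seq, tagmentation at 37 °C for 5 min gave higher levels of most ribosomal protein genes. Of 75 tested, 60 were higher and 4 lower, where 55.2% of all 12880 genes passed, 27.7% higher and 27.5% lower. Their median log2 fold change was 2.51. For all of these 60 and 4 genes the 2 libraries of each kind did not overlap, which held for 25.8% and 27.5% of all genes. By RPKM, 61 genes were higher in both tagmentated libraries.

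The largest differences were in genes that ligation-based libraries hardly counted. Rpsa had 4184 and 3271 CPM after tagmentation and 7.54 and 13.7 CPM after ligation, a log2 fold change of 8.71 ± 0.23 (n = 2 and 2, edgeR adjusted p = 3.63e-22). Rpl36 had 865 and 794 CPM against 5.90 and 5.82 CPM, 7.39 ± 0.22 on the log2 scale, and Rpl21 had 1153 and 1185 CPM against 8.53 and 9.06 CPM, 7.30 ± 0.18. The part of 50-base stretches that occurred elsewhere in the genome was 53.6% in Rpsa, 93.6% in Rpl36 and 28.3% in Rpl21. The median of the 76 genes was 60.7%. Over the 75 genes tested, the log2 fold change and the copied share had Spearman correlations of 0.12 for 50-base and −0.08 for 100-base stretches. By the study's methods the ligation-based libraries were read with paired ends of 100 bases and the tagmentated libraries with longer ones, on another platform. Read length and platform cannot be told apart from the kind of library here.

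Other genes differed less. Rplp0 had 2172 and 1761 CPM after tagmentation and 537 and 584 CPM after ligation, a log2 fold change of 2.06 ± 0.11. Rpl10a had 95.6 and 98.1 CPM against 37.5 and 40.7 CPM, 1.56 ± 0.16. Rpl41, Rps4x, Rpl37 and Rpl39 lay between, with 5.79 ± 0.12, 5.10 ± 0.13, 3.21 ± 0.59 and 2.86 ± 0.30. Only 4 of the genes were lower after tagmentation. Rps16 had 17.6 and 22.5 CPM against 61.1 and 57.4 CPM, a log2 fold change of −1.33 ± 0.24 (edgeR adjusted p = 3.9e-05), and Rps27a, made as a fusion with ubiquitin, had −1.35 ± 0.45 (edgeR adjusted p = 0.0126). Rpl29 had 2.20 and 0 CPM against 13.5 and 13.7 CPM, and Rpl30 had no count in either tagmentated library against 6.19 and 4.17 CPM.

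Gene length moved with this difference. Over all tested genes, the log2 fold change and the exon length had a Spearman correlation of −0.34. Among genes under 1000 bases, the median log2 fold change was 1.18 in 800 other genes and 2.65 in 53 ribosomal protein genes. Length and this difference were not separated further.

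Cytoplasm, taken as the 6 SET-seq libraries of 10000 cells, was compared with total RNA, taken as the 4 libraries tagmentated at 37 °C for 5 min and from 300 ng. Of 71 genes, 10 were higher and 33 lower in the cytoplasm, where 64.4% of all 11643 genes passed, 34.7% higher and 29.7% lower. Their median log2 fold change was −0.32, against 0.10 for all genes. Libraries of the groups did not overlap for 6 genes that were higher and 11 that were lower, which held for 18.9% and 15.3% of all genes.

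Rpl4 had 5704, 6835, 8406 and 5740 CPM in total RNA and 2337 to 2847 CPM, median 2552, in cytoplasm. The groups were apart, with a log2 fold change of −1.46 ± 0.12 (n = 6 and 4, edgeR adjusted p = 1.37e-09). Rpl13, a large-subunit protein with a low count, had 82.4 to 214 CPM in total RNA and 20.5 to 54.4 CPM, median 38.4, in cytoplasm, −1.89 ± 0.19 (edgeR adjusted p = 2.21e-08). Rps27a rose, from 2.65 to 9.35 CPM in total RNA to 14.2 to 35.2 CPM, median 22.4, in cytoplasm, 1.77 ± 0.27 (edgeR adjusted p = 7.09e-06). Rpl27 likewise had 22.0 to 29.2 CPM in total RNA and 73.9 to 119 CPM, median 89.9, in cytoplasm, 1.70 ± 0.16. Rpl36a and Rps6 rose by 1.69 ± 0.32 and 1.47 ± 0.18, and Rps7, Rpl35, Rpl37, Rplp0 and Rps4x fell by 1.35, 1.34, 1.04, 0.74 and 0.71. Rpl39, Rpl41, Rpsa and Rpl10a did not pass, with 0.39, 0.31, 0.20 and −0.28. Those that rose most were thus genes with few counts, and abundant ones such as Rpl4 fell.

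The direction depended on which cytoplasmic libraries were used. Without antibody alone, against 37 °C for 5 min, 27 genes were higher and 6 lower with a median of 0.29, and against 300 ng of RNA 17 were higher and 12 lower with a median of 0.03. Rplp0 shows the spread, with 2724 and 2384 CPM in SET-seq of 10000 cells without antibody against 1155 and 1073 CPM with the H3K27me3 antibody. The 4 libraries of total RNA had 2172, 1761, 2812 and 2632 CPM.

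With no antibody, the share of ribosomal protein genes was 8.79% and 7.24% from 10 cells, 9.50% and 7.01% from 100, 10.04% and 7.84% from 1000 and 11.34% and 9.39% from 10000 cells. Replicate 1 was above replicate 2 at every number, and both replicates were highest at 10000 cells. Of 75 genes, none passed between 10 and 10000 cells by edgeR, where 0% of 11916 genes passed. An unadjusted p below 0.05 was found for 17 of the genes and 2051 of all, and DESeq2 called none of them and 241 genes in all. The median log2 fold change was −0.41 against −0.38 for all genes. Simulated 4-fold changes were recovered in 1% of genes in this comparison. They were drawn with 1 dispersion, the spread between libraries, of 0.23 for all genes. At that dispersion, changes of this size were not detectable.

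No gene passed, and the levels went in either direction. Rpsa had 3444 and 4674 CPM at 10 cells, 4015 and 4957 at 100, 4891 and 4925 at 1000, and 8674 and 7378 CPM at 10000 cells. Rpl41 had 3661 and 4084, 4275 and 4026, 5069 and 4403, and 9950 and 7003 CPM. In both genes the 10000-cell libraries lay apart from the others, with log2 fold changes between 10 and 10000 cells of −1.27 and −1.40 and an edgeR adjusted p of 0.188 each. The log2 fold change was −1.59 for Rpl10a, −1.69 for Rpl37, −0.88 for Rplp0, 1.35 for Rpl39 and 0.09 for Rps4x. Rpl10a had 68.2 and 26.6, 97.6 and 67.7, 117 and 76.7, and 155 and 131 CPM. Replicate 2 of 10 cells held only 235040 counts. Without it 3 genes were higher and 1 lower, and without replicate 1 of 10 cells 1 was higher and 31 lower.

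With a histone antibody the 10000-cell libraries had the lowest shares. The share was 7.71% and 8.16% from 100 cells, 7.91% and 7.62% from 1000 and 6.64% and 6.25% from 10000 cells with the H3K4me3 antibody. With the H3K27me3 antibody it was 7.94% and 8.23%, 7.33% and 7.71%, and 6.35% and 6.81%. All 10000-cell libraries lay below all smaller ones. Of 72 genes, 44 were higher and 2 lower from 100 than from 10000 cells, where 21% of all 11616 genes passed, 11.9% higher and 9.09% lower. Their median log2 fold change was 0.59, against −0.04 for all genes. By an interaction test chosen after seeing the data, the effect of 100 against 10000 cells differed between libraries with and without antibody for 1 of 75 genes, Rpl19, where 0.0234% of all genes passed. The median difference of log2 effects over the 75 genes was 0.49. Libraries without antibody varied widely: simulated 4-fold changes between 10 and 10000 cells were recovered in 1% of genes. The lack of other calls therefore does not show that the effects were alike.

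Rpl36 had 819 and 832 CPM with H3K4me3 and 831 and 792 CPM with H3K27me3 from 100 cells, and 280 and 200 CPM and 258 and 306 CPM from 10000 cells. The groups did not overlap and the log2 fold change was 1.80 ± 0.10 (n = 4 and 4, edgeR adjusted p = 5.37e-10). Rpl19, a protein of the bridge between the subunits, had 327 and 393 CPM and 332 and 414 CPM from 100 cells, and 140 and 108 CPM and 117 and 169 CPM from 10000 cells, 1.60 ± 0.12 (edgeR adjusted p = 2.88e-08). Rplp2 and Rpl7a followed with 1.53 ± 0.08 and 1.56 ± 0.09. Rpsa fell, from 4250, 3601, 3982 and 4136 CPM at 10000 cells to 2741, 2759, 2979 and 2859 CPM at 100 cells. Its log2 fold change was −0.33 ± 0.05 (edgeR adjusted p = 0.00012), and Rplp1, a stalk protein, had the same value with an adjusted p of 0.00402. Rpl37, Rpl39, Rps4x and Rplp0 rose by 1.41 ± 0.26, 1.23 ± 0.13, 0.39 and 0.30, and Rpl41 and Rpl10a did not pass, with 0.02 and −0.21.

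No gene of the set was called between the 2 antibodies. None of 72 genes passed between H3K27me3 and H3K4me3, where 0% of 11616 genes passed by edgeR. An unadjusted p below 0.05 was found for 2 of the genes and 361 of all, and DESeq2 called none. The log2 fold changes of all 72 genes lay between −0.47 and 0.46 with a median of −0.01. Rplp0 had 1086 to 1251 CPM, median 1178, in the 6 H3K4me3 libraries and 1073 to 1269 CPM, median 1175, in the 6 H3K27me3 libraries. Rpl41 had 4080 to 6537 CPM, median 5242, and 3978 to 5990 CPM, median 5346.

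Loss of Aebp2 went with lower levels of most ribosomal protein genes. Aebp2 itself had 65.5 and 76.0 CPM in WT, 15.7 and 15.0 CPM in KO1 and 49.7 and 30.2 CPM in KO2, so its mRNA was lower in both lines but was still counted. The share of ribosomal protein genes was 6.35% and 6.81% in WT, 3.73% and 3.58% in KO1 and 3.29% and 3.66% in KO2. The 4 KO libraries lay below every tagmentated WT library. Less RNA from these genes in each cell and a smaller number of cells with high levels cannot be told apart in such bulk samples.

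Of 68 genes tested, 1 was higher and 50 lower in KO, where 57.3% of all 9523 genes passed, 27.8% higher and 29.5% lower. Their median log2 fold change was −0.81, against −0.02 for all genes. For 49 of the 50 genes the WT and KO libraries did not overlap, where 28.5% of all genes were called lower without overlap. Of the large subunit 29 of 40 fell and 1 rose, and of the small subunit 21 of 28 fell. The 10 markers of pluripotent cells summed to 3892 to 4481 CPM in KO, and 5 of them fell and none rose. Markers of primed epiblast summed to 158 to 192 CPM in KO and to 52.5 and 59.8 CPM in WT, and both of the 2 tested rose. The 1 mesoderm and the 1 neural marker tested rose as well, the 1 fibroblast marker tested did not pass, and the part of these markers in the result was not tested.

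The abundant genes led the fall in share. Rpl41 had 5094 and 5617 CPM in WT, 1686 and 1581 CPM in KO1 and 865 and 974 CPM in KO2, a log2 fold change of −1.98 ± 0.09 (n = 4 and 2, edgeR adjusted p = 7.35e-15). Rpsa had 3982 and 4136 CPM, 2187 and 2045 CPM, and 1632 and 1988 CPM, −0.91 ± 0.09 (edgeR adjusted p = 8.71e-09). Each KO library was below both WT libraries for both genes.

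Stalk proteins, which recruit translation factors to the large subunit, were among those that fell. Rplp1 had 2297 and 2878 CPM in WT, 779 and 739 CPM in KO1 and 466 and 576 CPM in KO2, −1.90 ± 0.10 on the log2 scale (edgeR adjusted p = 2.57e-13). Rplp0 had 1155 and 1073 CPM, 433 and 375 CPM, and 296 and 361 CPM, −1.46 ± 0.10 (edgeR adjusted p = 2.42e-11). Again no KO library reached a WT library.

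The largest fold changes were in Rpl10a, Rps2 and Rpl37a. Rpl10a had 64.6 and 72.7 CPM in WT, 16.7 and 9.56 CPM in KO1 and 9.94 and 8.89 CPM in KO2, −2.48 ± 0.25 (edgeR adjusted p = 6.8e-09). Rps2 had 1081 and 873 CPM, 130 and 147 CPM, and 181 and 268 CPM, −2.32 ± 0.13 (edgeR adjusted p = 2.81e-13). Rpl37a, a zinc-finger protein of the large subunit, had 612 and 695 CPM, 153 and 135 CPM, and 107 and 117 CPM, −2.22 ± 0.11 (edgeR adjusted p = 6.84e-14).

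Not every member followed. Rpl4 was the gene that rose, from 2504 and 2337 CPM to 2926 and 2996 CPM in KO1 and 3581 and 3465 CPM in KO2, 0.56 ± 0.09 (edgeR adjusted p = 5.59e-06). Rpl37 fell by 1.12 ± 0.16, and Rps4x did not pass, with −0.11 and an adjusted p of 0.278. Rpl39 had 257 and 336 CPM in WT, 236 and 249 CPM in KO1 and 174 and 77.4 CPM in KO2, and fell by 0.65 ± 0.17 (edgeR adjusted p = 0.00201). Against the SET-seq libraries without antibody as WT, the log2 fold change of Rpl39 was 0.52 and did not pass (edgeR adjusted p = 0.369).

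**Figure D4:**
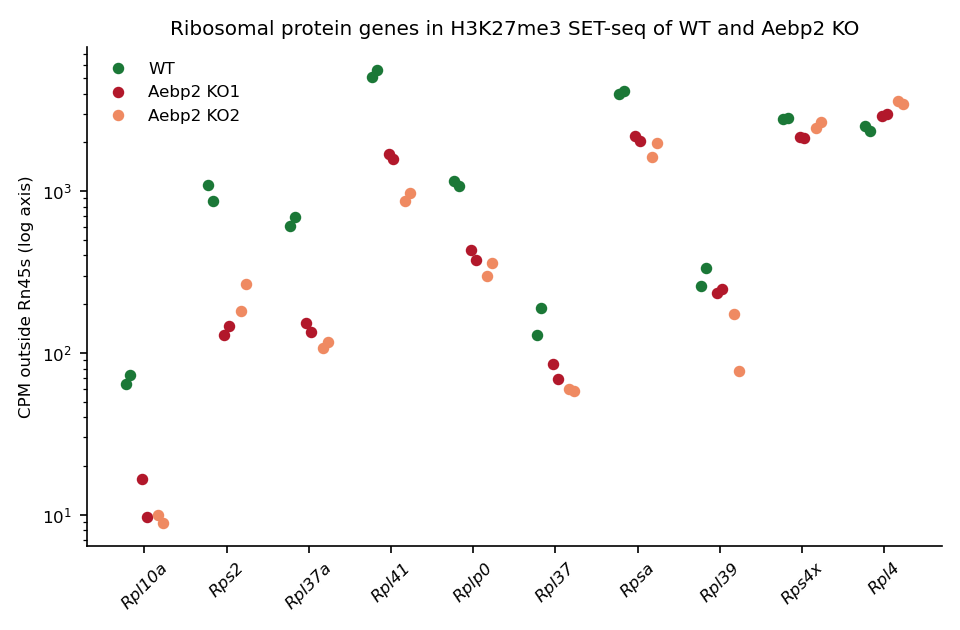
Level of ribosomal protein genes (CPM, log axis) in the H3K27me3 SET-seq libraries of 10000 WT cells and of the Aebp2 KO lines KO1 and KO2, with 1 point per library. All KO points lie below the WT points for Rpl10a, Rps2, Rpl37a, Rpl41, Rplp0 and Rpsa, and above them for Rpl4.

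Gene length moved with the KO difference. Over all tested genes, the log2 fold change and the exon length had a Spearman correlation of 0.47, and over the ribosomal protein genes one of 0.13. Among genes under 1000 bases, the median log2 fold change was −0.99 in 515 other genes and −0.73 in 47 ribosomal protein genes, and for other genes of 3000 bases or more it was 0.33. Under 1000 bases the ribosomal protein genes thus fell less than other genes, and in longer genes more: between 1000 and 2000 bases the medians were −0.93 in 17 ribosomal protein genes and −0.58 in 1861 others. Rn45s took 48.8% to 56.7% of the KO counts. These values stand beside the KO result, and their part in it was not tested.

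Other genes of the ribosome were counted from lists drawn up by function. Of 76 genes of mitochondrial ribosomal proteins, which form a separate ribosome, 2 rose and 56 fell in KO with a median of −0.83, where 27.8% of all genes rose and 29.5% fell. Of 29 genes of ribosome biogenesis, 15 rose and 6 fell with a median of 0.44. Of 19 other 5′TOP genes, which include translation factors, 8 rose and 6 fell with a median of 0.11. Fau, which carries Rps30 as a fusion, had 1087 and 1296 CPM in WT, 971 and 1029 CPM in KO1 and 777 and 851 CPM in KO2.

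The same lists moved otherwise in the other comparisons. At 37 °C against 16 °C, 43 of 78 mitochondrial genes rose and 17 fell, and 13 of the 19 other 5′TOP genes rose and 3 fell, where 32% of all genes rose and 31.4% fell. In cytoplasm against total RNA, 49 mitochondrial genes rose and 7 fell with a median of 0.53, while 9 biogenesis genes rose and 18 fell with a median of −0.45, where 34.7% of all genes rose and 29.7% fell. From 100 against 10000 cells with antibody, 33 mitochondrial genes rose and 1 fell, and 20 of 30 biogenesis genes rose and none fell, where 11.9% of all genes rose and 9.09% fell. After tagmentation against ligation, 40 mitochondrial genes rose and 9 fell with a median of 0.46, beside the median of 2.51 for the cytosolic genes and shares of 27.7% and 27.5% of all genes.

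The KO lines also differed from each other. Of 68 genes, 7 were higher and 5 lower in KO1 than in KO2, where 11.8% of all genes passed, 5.88% higher and 5.89% lower. Rpl41, with the values given above, was higher in KO1 by 0.73 ± 0.11 (n = 2 and 2, edgeR adjusted p = 0.000111), and Rpl36, with 318 and 379 CPM in KO1 and 185 and 210 CPM in KO2, by 0.71 ± 0.15 (edgeR adjusted p = 0.00252). Rpl6 was lower, with 151 and 159 CPM against 234 and 257 CPM, −0.77 ± 0.15 (edgeR adjusted p = 0.00137), and so was Rps2 with −0.81 ± 0.18 (edgeR adjusted p = 0.0039). Libraries of the lines did not overlap for any of these 4 genes. Rpl39 and Rpl23 were also higher in KO1, by 0.86 ± 0.22 and 0.59 ± 0.14, and Rps4x and Rpl7 lower, with −0.36 ± 0.10 and −0.51 ± 0.10. Without a library of KO1, 2 genes were higher and 2 lower. Without replicate 1 of KO2 these were 6 and 12, and without replicate 2 of KO2 11 and 4.

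In single cells, read counts without molecular identifiers were used from the 545 of 752 cells with more than 1000 and fewer than 5000 genes, 278 proximal to and 267 distal from the bead. The cells carried 96 barcodes in all, 80 of which occurred in more than 1 experiment, so cells were told apart by experiment and barcode. Ribosomal protein genes took a median of 4.25% of a cell's counts outside Rn45s, from 0.00113% to 45.4%. Both ends of this range came from H3K27me3 experiments 8 to 10, and the highest value in another experiment was 29.3%. The median of an experiment's cells was 0.0240% to 0.0410% in experiments 8 to 10 and 1.58% to 17.9% in the others. Counts were summed by experiment and position or cluster, over at least 3 cells, because cells of an experiment are not replicates.

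H3K27me3 experiments 8 to 10 stood apart. Their pluripotency markers summed to 0.880 to 3.68 CPM, against 396 to 19228 CPM in the other 13 experiments. In 111 of their 165 cells, ribosomal protein genes took under 0.1% of the counts, and in 0 of the 380 other cells. Only 5 to 25 of 72 genes were over 10 CPM in these experiments, against 29 to 72 elsewhere, and 153 of the 165 cells were in the Mix cluster. Their gene rows were in the same order as elsewhere: ranks of summed levels had a correlation of 0.441 to 0.497 with the mean of the other experiments, and of at most 0.0994 with the rows shifted by 1 to 50 places. Results that rest on these experiments are given with and without them.

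Proximal and distal cells did not differ in one direction. The mean share over the 14 experiments with both was 7.71% in proximal and 6.98% in distal cells, and proximal cells were higher in 8. With H3K27me3 they were higher in 8 of 9 experiments, 7.10% against 5.44%, and without experiments 8 to 10 in 5 of 6, 8.73% against 7.14%. With H3K4me3 they were lower in all 5, 8.81% against 9.76%. For example, H3K27me3 experiment 7 had 14.1% in proximal and 10.4% in distal cells, and H3K4me3 experiment 2 had 13.8% and 16.2%. The median difference over the 14 experiments was 0.229 percentage points with an SD of 1.91, and over the 11 experiments that remain without 8 to 10 it was −0.0466.

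No gene of the set passed the test between positions. Of 72 genes, none passed by edgeR with the experiment as a block, where 0% of 13086 genes passed. An unadjusted p below 0.05 was found for 0 of the genes and 1194 of all, and DESeq2 called none of them and 52 genes in all. The median log2 fold change was 0.31 against 0.11 for all genes. Without experiments 8 to 10 none of the 72 genes passed either, with a median of 0.04 against −0.09 for all genes. Rpl10a had 1.05 ± 0.63 (14 experiments, edgeR adjusted p = 0.685), Rpl39 0.89, Rplp0 0.65, Rpsa 0.52, Rps4x 0.41, Rpl37 0.37 and Rpl41 −0.27. The difference of the position effect between the antibodies was not called for any of the 72 genes either, with 1 at an unadjusted p below 0.05 where 790 of all genes had one, and 0% of all genes passed. Without experiments 8 to 10 these were 2 and 601, and none passed. Simulated 4-fold changes, drawn with 1 dispersion of 1.51 for all genes, were recovered in 0% of genes. At that dispersion, differences of this size were not detectable between sums.

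The clusters Proxi, Dista and Mix, with 133, 121 and 291 cells, were assigned by the study from the expression of the same cells, and their values are a description only. Sums of Proxi cells held 1.93% to 16.8% of counts in ribosomal protein genes, median 6.35% over 12 sums, those of Dista cells 2.89% to 16.9%, median 8.13% over 9 sums, and those of Mix cells 1.40% to 18.7%, median 4.17% over 15 sums. Without experiments 8 to 10 the medians were 6.42% over 11 Proxi sums and 4.92% over 12 Mix sums, while no Dista sum came from them. The ranges overlapped across experiments. Within an experiment, Proxi cells had more than Mix cells in 11 of 11, 8.74% against 6.36%, and in 10 of 10 without experiments 8 to 10. Dista cells had more than Mix cells in 8 of 9, 9.54% against 6.43%, and Proxi more than Dista cells in 3 of 9.

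**Figure D5:**
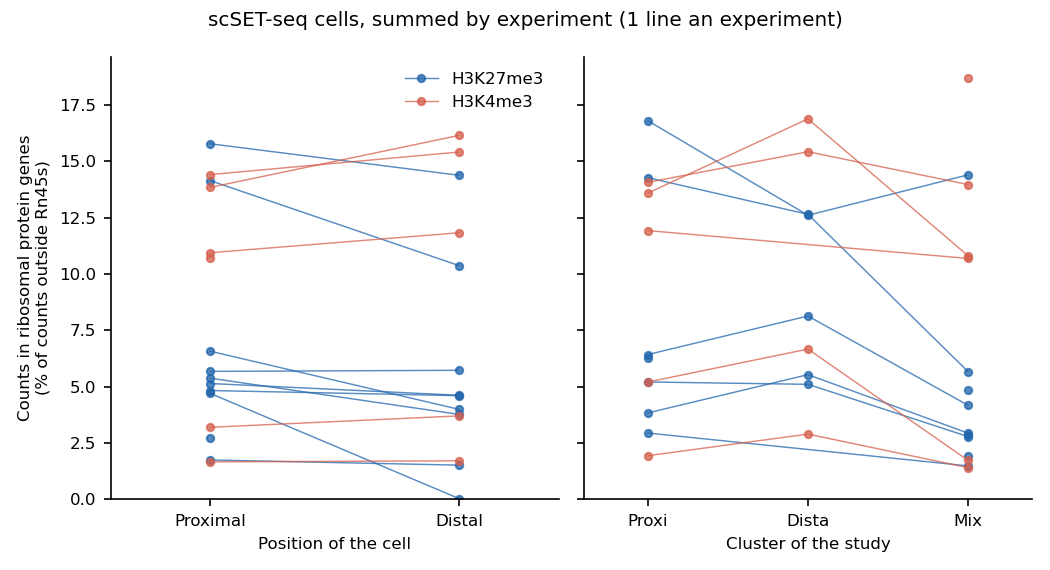
Share of counts outside Rn45s (percent) on ribosomal protein genes in sums of cells by experiment, for proximal and distal cells and for the Proxi, Dista and Mix clusters, with 1 point per sum and lines joining sums of the same experiment. Proxi lies above Mix in each of the 11 experiments with both, and the lines between positions run in either direction.

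By gene, the median level over sums was highest in Dista cells for 43 genes, in Proxi cells for 29 and in Mix cells for none. Rpl10a had a median of 1590 CPM in Proxi, 815 CPM in Dista and 305 CPM in Mix cells. Rps4x was the other way round, with 1207, 2154 and 331 CPM. Rpl37 had 945, 921 and 342 CPM, and Rplp0 had 1276, 1095 and 612 CPM. Rpsa had 2311, 1926 and 935 CPM, Rpl41 2811, 2615 and 1144 CPM, and Rpl39 342, 495 and 153 CPM. Without experiments 8 to 10 Dista was highest for 40 genes, Proxi for 32 and Mix for none. Rpl10a then had 1367 CPM in Proxi, 815 CPM in Dista and 590.4 CPM in Mix cells, and Rps4x 1355, 2154 and 559 CPM. Rpl37 had 1207, 921 and 438 CPM, Rplp0 1298, 1095 and 847 CPM, and Rpsa 2788, 1926 and 1405 CPM. Rpl41 had 3163, 2615 and 1165 CPM, and Rpl39 359, 495 and 233 CPM. Among genes under 30 CPM in all bulk libraries, Rpl26, Rps27 and Rpl5 had Proxi medians of 1403, 1241 and 1225 CPM. Rpl34, Rpl38 and Rpl29 had 475, 322 and 11.8 CPM. Bulk and single-cell counts came from different programs.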

How the data were processed

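Bulk expression was measured in 54 libraries and single-cell expression in 752 cells. The deposited bulk values are raw counts of read pairs per gene: the authors trimmed reads with Trim Galore 0.6.4, aligned them with STAR 2.5.4b to mm9 and counted exons with featureCounts 2.0.0, or a later release for the KO files, ignoring strand and dropping read pairs with more than 1 alignment or more than 1 gene. The deposited single-cell values are raw read counts on exons and introns from zUMIs. By the study's methods, reads were paired ends, of 100 bases after ligation and longer after tagmentation. Position and cluster of each cell were taken from the study's cell list.

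CPM and shares were calculated without Rn45s, and RPKM with the exon lengths in the files. The ribosomal protein genes and the other lists were chosen with earlier results of these data known. All genes were fitted by edgeR 4.0.16 in R 4.3.3, with TMM, its filter on low counts, the quasi-likelihood test and Benjamini-Hochberg adjustment over all genes, and a threshold of 0.05. Temperature was tested with time as a factor, the antibody comparisons with the other factor in the model, KO as both lines against WT, and positions with the experiment as a block. Alternatives were DESeq2 1.42.0, its size factors, TMM from other genes, no filter, Rn45s kept, a replicate block, other reference libraries, the study's rule, limma 3.58.1 and leaving out libraries. The genes named were, per comparison, the 4 members with the largest rise and the 4 with the largest fall among those called without overlap of the libraries, Rpl10a, Rpl37, Rps4x, Rpl39, Rpl41, Rplp0 and Rpsa, and the members with the highest and lowest RPKM after ligation. Rpl4 and Rpl32 for temperature, Rpl4 and Rpl41 for Tn5, Rplp1 for KO, and the genes lower after 30 min or after tagmentation were added after their values were seen. Some genes that this rule names, and the alternative that adds related genes to the share, are not reported here. Same-numbered libraries were taken as paired for the Tn5 amounts, where the correlations of their deviations were 0.845 to 0.904 in 3 of 3 pairs. In the other sets only some pairs were above 0.1.

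Copied stretches were counted by exact match in the NCBIM37 genome, the build of mm9. Simulated counts were drawn with a common dispersion for all genes of a comparison. On simulated data, 2-fold changes were recovered in 99% of changed genes for temperature, 71% for ligation, 91% for cytoplasm, 52% for 100 against 10000 cells, 94% for KO, 0% for 10 against 10000 cells and 0% for positions. Tables were made with Python 3.11.15, pandas 2.3.3 and numpy 2.4.6, figures with matplotlib 3.10.9.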

Additional observations from a re-analysis of the deposited data

Results flagged for a closer look

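The temperature effect differed between 5 min and 30 min for 14 genes with a larger and 3 with a smaller effect at 5 min, by an interaction term in edgeR. Among the genes with a larger effect, the differences of log2 effects were 1.97 for Rpl19, 1.91 for Rpl36, 1.51 for Rplp2, 1.19 for Rps15, 1.17 for Rpl21, 1.14 for Rpl41 and 1.05 for Rpl18. They were 0.90 for Rps14, 0.88 for Rpl23, 0.84 for Rpsa, 0.80 for Rps18, 0.62 for Rpl8 and 0.59 for Rpl32. Those with a smaller effect were Rpl9 with −1.51, Rpl15 with −1.46 and Rpl13a with −0.78.

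The effect of 100 against 10000 cells differed between SET-seq with and without antibody for 1 gene, which was higher with antibody: Rpl19, with a difference of 3.18 on the log2 scale, where 0.0234% of all genes passed. Without antibody Rpl19 had 246 and 91.6 CPM from 100 cells and 608 and 443 CPM from 10000 cells. The median difference over the 75 genes was 0.49, and the spread of the libraries without antibody limits this test.

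Among the sums of H3K27me3 Mix cells, experiment 3 held 14.4% of its counts in ribosomal protein genes and stood apart from the other sums. Chance alone sets apart about 1 in 20 groups, and 12 groups were examined, of which this was 1.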

How the results depend on the processing

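Of 876 values of 71 named calls under the alternatives, 810 kept their direction and their side of the threshold, 63 lost the call and 3 turned: in cytoplasm, Rplp0 to 0.51 and Rpl37 to 0.19 (no antibody against 37 °C for 5 min), and in KO, Rpl39 to 0.52 (no antibody as WT). The cause was not tested. Low counts, copied stretches and 2 libraries a condition limit the precision.

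The medians of the members' log2 fold changes moved as follows. Temperature: 0.49 with no filter, 0.67 at 5 min alone. Time: 0.28 to 0.35 with a replicate left out. Ligation: 2.39 with no filter, 2.37 to 2.53 with a library left out, 2.28 against all 8 conditions, 1.94 at 16 °C for 5 min, 2.73 from 300 ng. From 3 ng: −0.20 to 0.0050 with a library left out. From 30 pg: −0.39 with no filter, −0.35 with Rn45s, −0.33 with the replicate block, −0.51 to −0.25 with a library left out. Tn5: −0.0095 to 0.80. Cytoplasm: −0.44 with Rn45s, 0.027 and 0.29 without antibody against 300 ng and 37 °C for 5 min. From 10 cells: −1.33 to −0.041. From 100 cells with antibody: 0.45 to 0.58. KO: −0.96 with no filter, −1.12 with all H3K27me3, −1.02 with all 10000-cell and −1.58 with no-antibody libraries as WT, −0.90 for KO2 alone. KO1 against KO2: 0.0035 to 0.26 with a library left out.

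Counts of members called also moved. Temperature: 6 lower without replicate 2. Time: 1 lower by DESeq2, 5 with no filter, 1 higher to 11 higher and 1 lower with a replicate left out. Ligation: 2 lower with a library left out, 7, 8 and 7 lower against all 8 conditions, 16 °C for 5 min and 300 ng. From 3 ng: 2 higher and 9 lower by DESeq2, 1 lower with no filter. From 30 pg: 6 higher by DESeq2, 2 higher and 17 lower with no filter, 0 and 0 with the replicate block, 0 to 13 higher and 0 to 32 lower with a library left out. Cytoplasm: 16 higher with a library left out, 17 higher and 12 lower, and 27 higher and 6 lower, without antibody. From 10 cells: 6 lower with no filter, 3 lower with the replicate block, 1 to 3 higher and 1 to 31 lower with a library left out. From 100 cells with antibody: 4 lower by DESeq2, 0 without replicate 1. KO: 3 higher with Rn45s or KO1 alone, 2 for KO2 alone, 2 to 3 with a library left out, 0 with no antibody as WT, 0 higher and 27 lower by the study's rule (unadjusted P and a log2 fold change beyond 1). KO1 against KO2: 3 lower with the replicate block, 2 to 12 lower and 2 to 11 higher with a library left out, 0 and 0 by the study's rule.

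Shares with Rn45s included, without the top 5 members and of RPKM were 1.47%, 0.958% and 4.61% for ligation, 5.28%, 5.60% and 18.5% for 37 °C and 5.61%, 3.87% and 14.2% for 16 °C, both at 5 min. They were 5.09%, 4.54% and 15.0% for H3K27me3 SET-seq of 10000 cells, 1.69%, 2.58% and 9.83% for KO, and 8.59%, 6.70% and 21.1% for no-antibody SET-seq of 10000 cells.

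The replicate block changed no other count of calls by over 1.5 times. Only the Tn5 amounts were taken as paired. Of the temperature and time pairs, 9 of 28 had a correlation above 0.1, the highest 0.55. The main fits held no replicate term. Leaving out a whole replicate could not be fitted for ligation, RNA and Tn5 amounts, cytoplasm, 10 against 10000 cells and both KO comparisons, for want of residual degrees of freedom. There each library was left out instead, chosen after seeing the data, and the lone library was assumed to vary like the others.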

Other observations

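Relatives that the choice by symbol left out moved with the members in part. Rps27l, a copy of Rps27 that p53 induces, had 990 and 1055 CPM in WT H3K27me3 SET-seq, 338 and 396 CPM in KO1 and 207 and 163 CPM in KO2. After tagmentation at 37 °C for 5 min it had 293 and 375 CPM, and after ligation 102 and 105 CPM. Fau had 3058 and 3032 CPM after tagmentation and 193 and 181 CPM after ligation. Of 8 such relatives tested, none rose and 6 fell in KO against WT, where 27.8% of all genes rose and 29.5% fell.

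Rps28, a small-subunit protein with a level of 3.2 and 4.0 RPKM after ligation, had 402 and 315 RPKM after tagmentation at 37 °C for 5 min. Rpl9 had 3.4 and 5.6 RPKM against 155 and 221 RPKM. Both were among the lowest members in the ligation-based libraries.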
